A study of Mus musculus with 8 samples.

Results

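The RNA levels of 9 enzymes that cross-link the extracellular matrix (ECM), or that prepare its collagen for cross-linking, were followed in the mouse distal colon. They were listed by gene symbol and comprise 2 transglutaminases (*Tgm2* and *Tgm3*), 4 lysyl oxidases (*Lox*, *Loxl1*, *Loxl2* and *Loxl3*) and 3 lysyl hydroxylases (*Plod1*, *Plod2* and *Plod3*). The list does not hold every member of these families, and *Loxl4* and *Tgm1* are among those left out. All 9 were among the 15859 genes counted, and all 9 were among the 14371 genes with enough counts to be tested. RNA was sequenced from a piece of distal colon, without separation of its cells, of 8 male mice of a mixed BALB/c x 129SvEV strain, 2 in each of 4 groups. WT mice and their *Hsf1* null littermates, which lack the stress-response transcription factor HSF1 in every cell of the body, were either untreated (day 0) or had gone through 1 cycle of AOM-DSS (day 15). In this model of colitis-associated cancer the carcinogen azoxymethane (AOM, 10 mg/kg) is injected at the age of 8 weeks and followed by 5 days of 1.5% dextran sulfate sodium (DSS) in the drinking water, which injures the colon epithelium. The labels give an age of 10 weeks for the mice of all 4 groups.

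Collagen and elastin gain their strength from covalent bonds between molecules. Lysyl hydroxylases act inside the cell, where they add hydroxyl groups to collagen lysines and so influence which cross-links can form. Lysyl oxidases act outside the cell and oxidize lysines of collagen and elastin to aldehydes, which then react with neighboring chains. Transglutaminases join glutamine to lysine side chains, and their targets include fibronectin and proteins of the epithelial cell envelope. Cross-linking stiffens the matrix, and enzymes of these families are known for their part in wound repair, fibrosis and tumor stroma.

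Levels are given in CPM, the usual unit of counts scaled to library size, after TMM adjustment. Library totals lay between 2553348 and 12440257 counts, with the lowest in replicate 2 of WT day 0 and in replicate 2 of *Hsf1* null day 0. *Hsf1* itself was at 40.5 and 36.5 CPM in WT day 0 mice and at 14.0 and 11.9 CPM in *Hsf1* null day 0 mice. The WT mice of day 15 had 50.5 and 45.9 CPM of it and the *Hsf1* null mice 13.5 and 9.09 CPM, so every *Hsf1* null mouse lay below every WT mouse. Replicate 1 of WT day 0 was far above its group mate in some matrix genes and close to it in others. *Col3a1*, a chain of type III collagen, was at 378 CPM in it and at 331 CPM in replicate 2, and *Postn* at 231 and 220 CPM. *Col1a1*, a chain of type I collagen, was at 1065 CPM in it and at 166 CPM in replicate 2, and *Serpinh1*, a collagen chaperone, at 381 and 69.9 CPM. Values without this mouse are therefore given beside several of the results. Because the cells of the tissue were not separated, a lower level can mean fewer cells of a type or less RNA per cell, and these cannot be told apart.

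At day 15 the enzymes differed by genotype in both directions. *Tgm2* and *Plod1* were higher and *Tgm3* was lower in WT than in *Hsf1* null mice, and the same 3 genes passed the test between day 0 and day 15 in WT mice. In the untreated colon 0 of the 9 passed, where 0 of all 14371 genes did. In *Hsf1* null mice *Plod3* passed, as higher at day 15. Over all genes, 3.17% passed between the genotypes at day 15, and between the days 7.74% in WT and 11.8% in *Hsf1* null mice. A gene was called when the Benjamini-Hochberg adjusted p of edgeR's quasi-likelihood test was under 0.05 and the absolute log2 fold change was above 1. Fold changes between the genotypes are given as WT over *Hsf1* null and those between the days as day 15 over day 0.

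**Figure D1:**
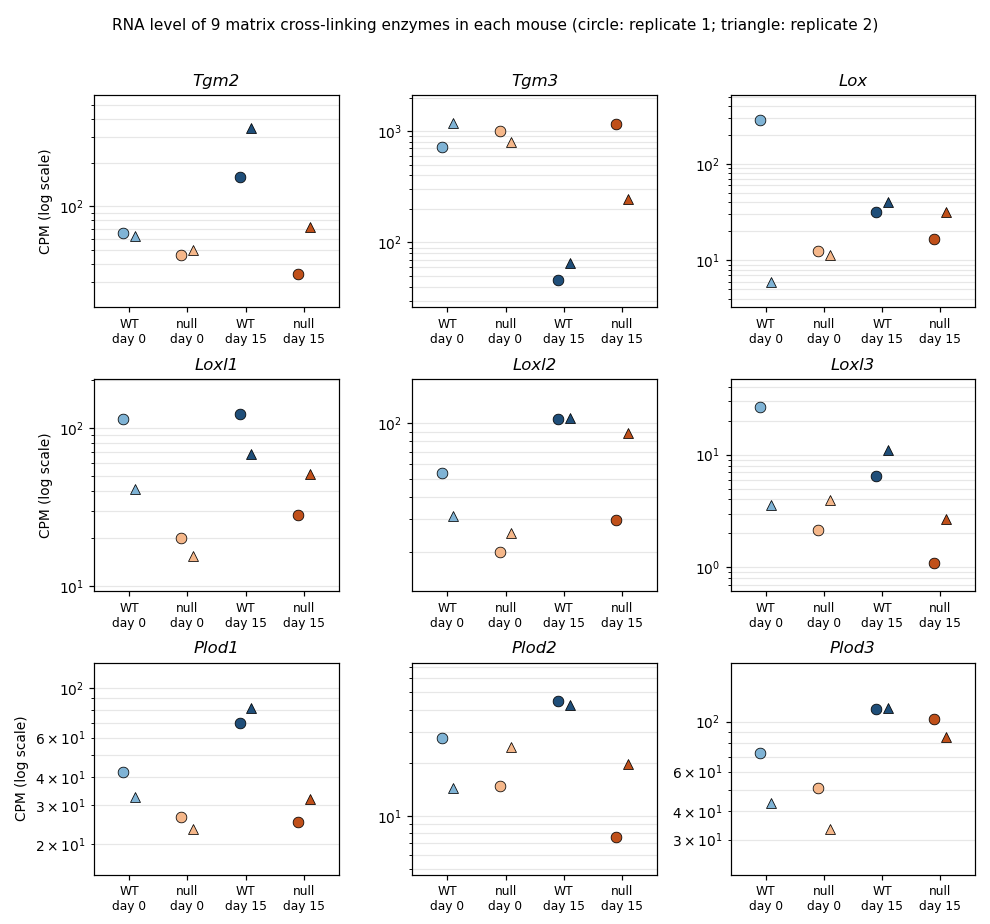
RNA level of each of the 9 enzymes (CPM, logarithmic vertical axes that differ between panels) in each mouse, by group, with circles for replicate 1 and triangles for replicate 2. *Tgm3* was at 46.2 and 65.0 CPM in the WT day 15 mice and at 247 CPM or more in the 6 others, and *Lox* was at 285 CPM in replicate 1 of WT day 0 and at 40.7 CPM or less in the 7 others.

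*Tgm3*, a transglutaminase best known from the cornified layer of the skin and from hair, showed the largest difference by genotype of the 9 enzymes at day 15. The gene (ENSMUSG00000027401) lies on chromosome 2 from 130012349 to 130050399 on the plus strand of GRCm38. It was at 718 and 1189 CPM in WT day 0 mice, 995 and 802 CPM in *Hsf1* null day 0 mice, 46.2 and 65.0 CPM in WT day 15 mice, and 1145 and 247 CPM in *Hsf1* null day 15 mice. The WT day 15 mice were the 2 lowest of the 8, and replicate 2 of *Hsf1* null day 15 lay between them and the 5 others. The log2 fold change between the genotypes at day 15 was -3.65 (SE 0.64, edgeR adjusted p = 0.0234), which is 12.5-fold lower in WT mice. For the WT mice alone, the change with treatment was -4.10 (SE 0.65, edgeR adjusted p = 0.0103), or 17.2-fold lower at day 15. Ordered from the lowest log2 fold change among the 14371 genes tested, *Tgm3* was number 43 between the genotypes at day 15 and number 47 between the days in WT mice. In *Hsf1* null mice the log2 fold change between the days was -0.37 (SE 0.57, adjusted p = 0.691), with the treated mice on both sides of the untreated ones. The genotypes at day 0 overlapped, with a log2 fold change of 0.08 (SE 0.57, adjusted p = 0.981).

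The fall of *Tgm3* in WT mice was called in 7 of 8 fits that each left out 1 mouse, with log2 fold changes from -4.42 to -3.68, and missed it without replicate 2 of WT day 15 (adjusted p = 0.0569 in edgeR). The difference between the genotypes at day 15 was called in 3 of these 8 fits, and the log2 fold change ran from -4.37 without replicate 2 of *Hsf1* null day 15 to -2.16 without replicate 1. The adjusted p in edgeR was 0.0625 and 0.0618 without replicate 1 or 2 of *Hsf1* null day 0, 0.0666 and 0.111 without replicate 1 or 2 of WT day 15, and 0.0942 without replicate 1 of *Hsf1* null day 15. It was not called with the 4 day 15 mice fitted alone (log2 fold change -3.67, adjusted p = 0.0865 in edgeR). Tested as an interaction, the difference between WT and *Hsf1* null mice in their response to treatment was -3.73 on the log2 scale (SE 0.84, unadjusted p = 0.00122 and adjusted p = 0.324 in edgeR). DESeq2 called this interaction (log2 fold change -3.73, adjusted p = 6.33e-05).

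*Tgm2*, the widely expressed tissue transglutaminase, which cross-links fibronectin and other matrix proteins, moved the other way. The gene (ENSMUSG00000037820) lies on chromosome 2 from 158116402 to 158146436 on the minus strand of GRCm38. Its level was 66.0 and 62.3 CPM in WT day 0 mice, 46.6 and 50.3 CPM in *Hsf1* null day 0 mice, 158 and 345 CPM in WT day 15 mice, and 34.1 and 71.7 CPM in *Hsf1* null day 15 mice. Both WT day 15 mice were above all 6 others, and the *Hsf1* null day 15 mice were spread around the untreated ones. *Tgm2* was 4.75-fold higher in WT than in *Hsf1* null mice at day 15 (log2 fold change 2.25, SE 0.42, edgeR adjusted p = 0.0274). It rose 3.91-fold by day 15 in WT mice (log2 fold change 1.97, SE 0.42, edgeR adjusted p = 0.0245). In *Hsf1* null mice the log2 fold change between the days was 0.13 (SE 0.41, adjusted p = 0.853 in edgeR). The interaction was 1.84 on the log2 scale (SE 0.58, unadjusted p = 0.00983, adjusted p = 0.439 in edgeR, and adjusted p = 0.0836 in DESeq2), and was not called.

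The call of *Tgm2* between the genotypes at day 15 was kept in 4 of 8 fits without 1 mouse, with log2 fold changes from 1.58 without replicate 2 of WT day 15 to 2.88 without replicate 2 of *Hsf1* null day 15. It was lost without replicate 1 or 2 of *Hsf1* null day 0 (adjusted p = 0.0671 and 0.0663 in edgeR), replicate 2 of WT day 15 (0.138) or replicate 1 of *Hsf1* null day 15 (0.163), and also with only the groups compared (0.0980). The rise in WT mice was kept in 5 of 8 such fits, from 1.30 to 2.43 on the log2 scale, and lost without replicate 1 or 2 of WT day 0 (adjusted p = 0.0827 and 0.148 in edgeR) or replicate 2 of WT day 15 (0.145). Exons of *Tgm2* share 370 bases with *Rprd1b* and 633 bases with the processed transcript *Gm20412*, both on the opposite strand. Whether the counting used strand is not given in the sources used here, so reads in these bases cannot be assigned to one gene with certainty.

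Set side by side per length, both transglutaminases changed places in 1 of the 4 groups. Levels between genes are compared as CPM per kb of merged exons. *Tgm3* was above *Tgm2* by 12.1-fold and 21.3-fold in the WT day 0 mice, and by 23.8-fold and 17.8-fold in the *Hsf1* null day 0 mice. In the WT day 15 mice *Tgm2* was above *Tgm3* by 3.07-fold and 4.77-fold. In the *Hsf1* null day 15 mice *Tgm3* was again the higher, by 37.4-fold and 3.83-fold. With the length of the longest annotated transcript in place of merged exons, *Tgm2* was above *Tgm3* by 3.93-fold and 6.11-fold in the WT day 15 mice and below it in the 6 others. *Tgm3* made up between 79.3% and 97.4% of the summed CPM per kb of the pair in those 6 mice, against 24.6% and 17.3% in the WT day 15 mice.

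**Figure D2:**
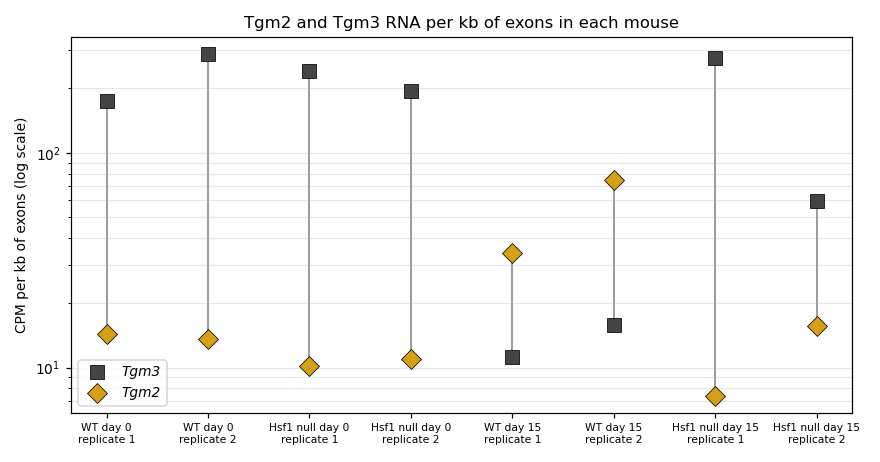
CPM per kb of merged exons (logarithmic axis) of *Tgm3* (squares) and *Tgm2* (diamonds) in each of the 8 mice, with a line joining both genes of a mouse. *Tgm2* lay above *Tgm3* in the 2 WT day 15 mice (3.07-fold and 4.77-fold) and below it in the other 6, where the distance was smallest in replicate 2 of *Hsf1* null day 15 (3.83-fold).

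Promoter sequences are shown for *Tgm3* and *Plod1*, the 2 called enzymes of the day 15 genotype comparison with an entry in the RefSeq table used (GRCm38.p6), which gave windows for 3 of the 9 enzymes. They moved in opposite directions and are set side by side for that reason. Each window is the 250 bases before the RefSeq start, which for both genes lies a few bases from the GENCODE start given with the gene, read 5′ to 3′ on the strand of the gene. The *Tgm3* window is chr2:130012090-130012339 on the plus strand and the *Plod1* window is chr4:147936777-147937026 on the minus strand.
Tgm3: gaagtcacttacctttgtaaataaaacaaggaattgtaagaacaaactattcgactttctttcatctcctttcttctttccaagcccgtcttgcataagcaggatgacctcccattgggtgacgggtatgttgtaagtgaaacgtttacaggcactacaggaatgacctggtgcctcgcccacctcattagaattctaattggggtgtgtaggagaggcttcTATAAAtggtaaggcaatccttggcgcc
Plod1: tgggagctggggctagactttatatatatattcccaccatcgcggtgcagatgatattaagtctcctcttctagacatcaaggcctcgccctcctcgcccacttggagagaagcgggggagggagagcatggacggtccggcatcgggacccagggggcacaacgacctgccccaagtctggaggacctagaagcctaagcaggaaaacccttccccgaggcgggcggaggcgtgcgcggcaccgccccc
Capitals mark the TATA box letters TATAAA, searched on the strand of the gene, which begin 28 bases before the RefSeq start of *Tgm3* and occur in 7.59% of 32851 promoter windows of the same length. The *Plod1* window does not hold these letters. The GC content was 44% for *Tgm3* and 61.6% for *Plod1*. The paired units of the heat shock element, GAANNTTC and TTCNNGAA, each of which reads the same on both strands, occurred in 12.8% of all windows and in 0 of the 3 windows of the enzymes.

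*Plod1*, which hydroxylates lysines in the triple helix of collagen, was the third enzyme that differed by genotype at day 15. The gene (ENSMUSG00000019055) lies on chromosome 4 from 147909753 to 147936767 on the minus strand of GRCm38. It was at 42.0 and 32.6 CPM in WT day 0 mice, 26.4 and 23.4 CPM in *Hsf1* null day 0 mice, 69.9 and 81.2 CPM in WT day 15 mice, and 25.1 and 31.8 CPM in *Hsf1* null day 15 mice. The WT day 15 mice were the 2 highest of the 8, and the *Hsf1* null mice of both days lay below all WT mice. *Plod1* was 2.65-fold higher in WT mice at day 15 (log2 fold change 1.41, SE 0.26, edgeR adjusted p = 0.0276). It rose 2.01-fold by day 15 in WT mice (log2 fold change 1.01, SE 0.26, edgeR adjusted p = 0.0449). That rise was close to both thresholds and was called in 2 of 8 fits without 1 mouse, those without either *Hsf1* null day 15 mouse (adjusted p = 0.0392 and 0.0398 in edgeR). The genotype difference was called in 4 of 8, and lost without replicate 1 or 2 of *Hsf1* null day 0 (0.0571 and 0.0567), replicate 2 of WT day 15 (0.144) or replicate 1 of *Hsf1* null day 15 (0.185). Of the 7 alternatives that kept all mice, the genotype difference was lost with counts thinned to the smallest library and with only the groups compared (adjusted p = 0.0586 and 0.0909 in edgeR). The rise in WT mice was lost with both of these (0.0941 and 0.0534) and with the replicate block (0.0621). In *Hsf1* null mice the log2 fold change between the days was 0.19 (SE 0.27, adjusted p = 0.656 in edgeR), and the interaction was 0.82 (SE 0.37, adjusted p = 0.588).

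*Plod2*, the hydroxylase of lysines in the telopeptides of collagen, was also highest in the WT day 15 mice but did not pass. The gene (ENSMUSG00000032374) lies on chromosome 9 from 92542223 to 92608428 on the plus strand of GRCm38. It was at 27.4 and 14.3 CPM in WT day 0 mice, 14.8 and 24.4 CPM in *Hsf1* null day 0 mice, 45.0 and 42.2 CPM in WT day 15 mice, and 7.60 and 19.5 CPM in *Hsf1* null day 15 mice. The WT day 15 mice were above all 6 others, and the untreated genotypes overlapped. The log2 fold change between the genotypes at day 15 was 1.68 (SE 0.47, edgeR adjusted p = 0.0769), and DESeq2 called it (1.68, adjusted p = 0.00865). Without 1 mouse it ran from 1.15, without replicate 1 of *Hsf1* null day 15, to 2.52, without replicate 2 of that group, where alone of 8 such fits it passed (edgeR adjusted p = 0.0313). Its exons share 346 bases with *Gm38391* on the opposite strand.

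*Plod3* joins lysyl hydroxylase to sugar transferase activity and is needed for basement membrane collagen. It was the 1 enzyme that edgeR called between the days in *Hsf1* null mice. The gene (ENSMUSG00000004846) lies on chromosome 5 from 136987019 to 136996648 on the plus strand of GRCm38. It was at 72.3 and 43.7 CPM in WT day 0 mice, 50.8 and 33.4 CPM in *Hsf1* null day 0 mice, 114 and 114 CPM in WT day 15 mice, and 103 and 85.6 CPM in *Hsf1* null day 15 mice. All 4 treated mice were above all 4 untreated mice. The rise in *Hsf1* null mice was 2.21-fold (log2 fold change 1.14, SE 0.30, edgeR adjusted p = 0.0383) and was called in 5 of 8 fits without 1 mouse. It was lost without replicate 2 of *Hsf1* null day 0 (adjusted p = 0.251 in edgeR) or without replicate 1 or 2 of *Hsf1* null day 15 (0.120 and 0.0666). In WT mice the log2 fold change was 0.96 (SE 0.30, adjusted p = 0.0746 in edgeR). In DESeq2 it was 0.98 (adjusted p = 0.0358), under the fold threshold. The interaction was -0.18 (SE 0.42, adjusted p = 0.926), so a difference between the genotypes in this change was not shown. Between the genotypes at day 15 the log2 fold change was 0.28 (SE 0.29, adjusted p = 0.607). Exons of *Plod3* share 529 bases with *Znhit1* on the opposite strand.

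Per kb of exons, *Plod3* was the highest lysyl hydroxylase in every mouse, with 48.1% to 81.6% of the CPM per kb of the 3. The summed CPM per kb of the 3 hydroxylases was 27.3 and 17.1 in WT day 0, 17.9 and 15.4 in *Hsf1* null day 0, 43.8 and 45.2 in WT day 15, and 27.9 and 27.3 in *Hsf1* null day 15 mice. The WT day 15 mice had the highest sums, and the share of *Plod3* was highest in both *Hsf1* null day 15 mice, at 81.6% and 69.5%.

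**Figure D3:**
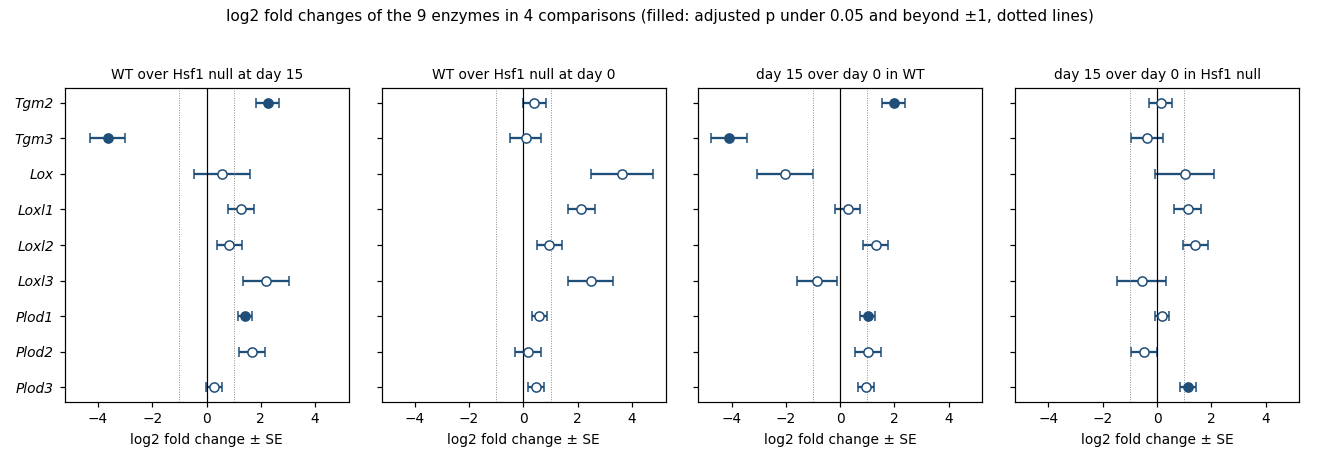
log2 fold changes of the 9 enzymes (points) with their SE (bars) from edgeR in 4 comparisons, where filled points were called and dotted lines mark the fold threshold. Between the genotypes at day 15, *Tgm2* (2.25) and *Plod1* (1.41) lay to the right and *Tgm3* (-3.65) to the left, and at day 0 *Lox* (3.62) was the farthest from 0 without being called.

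With all 8 mice the listed lysyl oxidases did not pass the edgeR test in any comparison. *Lox*, the founding member of the family, which cross-links fibrillar collagen and elastin, was dominated by 1 mouse. The gene (ENSMUSG00000024529) lies on chromosome 18 from 52516067 to 52529867 on the minus strand of GRCm38. It was at 285 and 5.96 CPM in WT day 0 mice (2906 and 15 counts), 12.4 and 11.5 CPM in *Hsf1* null day 0 mice, 31.9 and 40.7 CPM in WT day 15 mice, and 16.8 and 32.0 CPM in *Hsf1* null day 15 mice. The highest and the lowest value of all 8 mice were thus those of the 2 WT day 0 mice. The log2 fold change between the genotypes at day 0 was 3.62 (SE 1.14, edgeR adjusted p = 0.775), and -1.01 without replicate 1 of WT day 0. Without replicate 2 of WT day 0 it was 4.54. Between the days in WT mice it was -2.03 (SE 1.04, adjusted p = 0.238 in edgeR). Without replicate 1 of WT day 0 this turned to 2.60, and without replicate 2 it was -2.96. Each of these fits held a single WT day 0 mouse and took its spread from the other groups only. No direction can be given for *Lox* in either comparison.

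*Loxl1*, the family member tied most closely to elastic fibers, was higher in both WT mice than in both *Hsf1* null mice at each day. The gene (ENSMUSG00000032334) lies on chromosome 9 from 58287738 to 58313186 on the minus strand of GRCm38. It was at 114 and 41.3 CPM in WT day 0 mice, 20.0 and 15.5 CPM in *Hsf1* null day 0 mice, 123 and 68.3 CPM in WT day 15 mice, and 28.2 and 50.8 CPM in *Hsf1* null day 15 mice. The 4 WT mice did not overlap with the *Hsf1* null mice of their own day. The log2 fold change was 2.13 at day 0 (SE 0.50, edgeR adjusted p = 0.775) and 1.27 at day 15 (SE 0.48, adjusted p = 0.151). DESeq2 called the difference at day 0 (log2 fold change 2.11, adjusted p = 0.0119), and without replicate 1 of WT day 0 the edgeR log2 fold change was 1.20.

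*Loxl2*, which acts on type IV collagen of basement membranes among other substrates, was higher at day 15 than at day 0 in each genotype and higher in WT than in *Hsf1* null mice at each day. The gene (ENSMUSG00000034205) lies on chromosome 14 from 69609068 to 69695834 on the plus strand of GRCm38, and its exons share 301 bases with the antisense gene *Gm27177*. It was at 53.8 and 31.4 CPM in WT day 0 mice, 20.0 and 25.2 CPM in *Hsf1* null day 0 mice, 106 and 107 CPM in WT day 15 mice, and 29.6 and 89.1 CPM in *Hsf1* null day 15 mice. None of these 4 pairs of groups overlapped. The log2 fold change between the days was 1.30 in WT mice (SE 0.45, edgeR adjusted p = 0.0999) and 1.41 in *Hsf1* null mice (SE 0.47, adjusted p = 0.0697). DESeq2 called both (1.33, adjusted p = 0.0260, and 1.40, adjusted p = 0.0159). The genotypes at day 15 differed by 0.84 on the log2 scale (SE 0.45, adjusted p = 0.286 in edgeR), and at day 0 by 0.95 (SE 0.47, adjusted p = 0.794). The change in WT mice passed in 2 of 8 fits without 1 mouse, those without either *Hsf1* null day 15 mouse (edgeR adjusted p = 0.0261 and 0.0289), and its highest value, 1.76, was that without replicate 1 of WT day 0. The other day 15 values also turned on single mice. Without replicate 1 of *Hsf1* null day 15 the log2 fold change was 0.25 between the genotypes at day 15 (edgeR adjusted p = 0.780), and the increase between the days in *Hsf1* null mice passed (adjusted p = 0.0274). Without replicate 2 of that group it was 1.85 between the genotypes, which passed (edgeR adjusted p = 0.0316), and 0.41 between the days (adjusted p = 0.482).

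*Loxl3*, a related lysyl oxidase, had the fewest counts of the 9 enzymes, from 7 to 272 per mouse. The gene (ENSMUSG00000000693) lies on chromosome 6 from 83034173 to 83052562 on the plus strand of GRCm38, and its exons share 535 bases with *Htra2* on the opposite strand. It was at 26.7 and 3.57 CPM in WT day 0 mice, 2.14 and 3.95 CPM in *Hsf1* null day 0 mice, 6.52 and 11.0 CPM in WT day 15 mice, and 1.09 and 2.67 CPM in *Hsf1* null day 15 mice. As with *Lox*, replicate 1 of WT day 0 was the highest of all, and at day 15 both WT mice were above both *Hsf1* null mice. The log2 fold change at day 15 was 2.19 (SE 0.83, edgeR adjusted p = 0.154), called by DESeq2 (2.21, adjusted p = 0.0489).

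Summed over the 4 lysyl oxidases, CPM per kb was 110 and 20.3 in WT day 0, 12.8 and 12.6 in *Hsf1* null day 0, 65.0 and 51.5 in WT day 15, and 17.8 and 39.2 in *Hsf1* null day 15 mice. *Lox* was 54.2% of the sum in replicate 1 of WT day 0 and between 6.13% and 20.2% in the other 7 mice. In those 7 mice *Loxl1* and *Loxl2* held the largest shares. At day 15 the sums of the 2 WT mice were above those of the 2 *Hsf1* null mice.

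**Figure D4:**
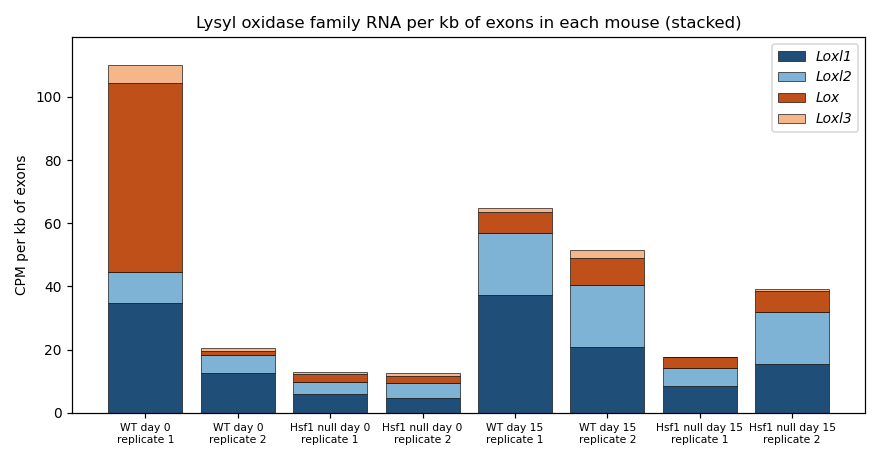
CPM per kb of merged exons of the 4 lysyl oxidases, stacked, in each of the 8 mice. The bar of replicate 1 of WT day 0 reached 110 with 54.2% from *Lox*, the WT day 15 bars reached 65.0 and 51.5, and the untreated *Hsf1* null bars were the lowest at 12.8 and 12.6.

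In the order of the levels per kb, *Tgm3* was first in WT day 0, *Hsf1* null day 0 and *Hsf1* null day 15 mice, with mean CPM per kb of 231, 217 and 168 and no overlap with the next enzyme. In WT day 15 mice it was the fifth, at 13.4, and *Tgm2* was the first at 54.6, followed by *Loxl1* at 29.0, with which it overlapped. *Loxl3* was the lowest in all 4 groups, with means between 0.409 and 3.28. Behind *Tgm3* in WT day 0 mice, each of the 8 others overlapped with its neighbor in the order.

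Counted together, 3 of the 9 enzymes were called between the genotypes at day 15 (in WT, *Tgm2* and *Plod1* higher and *Tgm3* lower), where 3.17% of the 14371 genes were called. Between the days in WT mice 3 of 9 were called, against 7.74% of all genes, and in *Hsf1* null mice 1 of 9, against 11.8%. At day 0, 0 of 9 were called between the genotypes, as were 0% of all genes (0 genes), with 3 of the 9 (*Lox*, *Loxl1* and *Loxl3*) at an unadjusted p under 0.05, against 6.29% of all genes. Without replicate 1 of WT day 0 it was 1 of 9, against 1.96%. For the interaction 0 of 9 were called, against 0.00696% of all genes (1 gene), and again 3 of the 9 had an unadjusted p under 0.05, against 8.62%, and 5 of 9 without replicate 1 of WT day 0, against 7.69%. DESeq2 called 5 of 9 at day 15, against 8.33% of all genes, adding *Loxl3* and *Plod2*. It called 1 of 9 at day 0 (*Loxl1*), against 0.125%, 4 of 9 between the days in WT mice (*Loxl2* in addition), against 12.1%, 2 of 9 in *Hsf1* null mice (*Loxl2* and *Plod3*), against 15.3%, and 1 of 9 for the interaction (*Tgm3*), against 0.905%. These comparisons share mice, so their counts are not independent of each other.

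Non-overlap of 2 against 2 mice was common among all genes. Between the genotypes at day 15, 8 of the 9 enzymes did not overlap (7 on the higher and 1 on the lower side in WT), against 54.8% of all genes, and at day 0, 4 of 9 (all higher in WT), against 37.1%. Between the days 6 of 9 did not overlap in WT mice, against 62.5%, and 4 of 9 in *Hsf1* null mice, against 61.3%. An exact two-sided permutation test of single values cannot go below p = 0.333 with 2 mice per group. The median log2 fold change of the 9 enzymes was 1.27 between the genotypes at day 15 and 0.59 at day 0, where the medians over all genes were 0.03 and 0.01. It was 0.96 between the days in WT and 0.19 in *Hsf1* null mice, with 0.00 and 0.05 over all genes. Without replicate 1 of WT day 0 the median was 0.37 at day 0 and 1.39 between the days in WT mice, where all genes had -0.03 and 0.05. The median interaction was -0.18 with all mice and 1.02 without this mouse, beside 0.06 over all genes in the latter fit.

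The other genes of matrix assembly, taken from lists by gene name, were called in few comparisons. Between the genotypes at day 15, edgeR called 0 of 46 tested genes, where it called 3.17% of all genes, in the 4 lists of other matrix cross-linkers (6 tested of 10 listed), prolyl hydroxylases and collagen folding (17), procollagen processing (7 of 8) and cross-linked substrates and partners (16). Positive log2 fold changes, higher in WT, were seen in 5 of 6, 15 of 17, 7 of 7 and 16 of 16 of them, with medians of 0.78, 0.70, 0.94 and 1.01 beside 0.03 over all genes. DESeq2 called 4 of the 46, all higher in WT, where it called 8.33% of all genes. These were *Mfap4* of the elastic fiber (log2 fold change 2.18, DESeq2 adjusted p = 0.00288), the type III collagen gene *Col3a1* (1.64, adjusted p = 0.00405), *Efemp2*, which encodes fibulin-4 (1.46, adjusted p = 0.0352), and *Crtap*, of the prolyl 3-hydroxylation complex (1.15, adjusted p = 0.0303). Over the edgeR fits without 1 mouse the day 15 count was 6 without replicate 2 of *Hsf1* null day 15 (*P3h3*, *Adamts2*, *Col3a1*, *Col5a1*, *Emilin1* and *Postn*), 1 without replicate 2 of WT day 15 (*Mfap4*) and 0 in the other 6. At day 0 it was 1 without replicate 2 of WT day 0 (*Serpinh1*) and 0 in the other 7. At day 0, with 0 called by either tool with all mice, the medians were 0.34, 0.47, 0.89 and 1.16 beside 0.01. Without replicate 1 of WT day 0, a fit chosen after the values were seen, the day 0 medians were 0.22, 0.03, 0.19 and 0.28 beside -0.03 over all genes. In that mouse *Fn1*, which encodes the transglutaminase substrate fibronectin, was at 1146 CPM, against 465 CPM in replicate 2 and 382 and 365 CPM in *Hsf1* null mice.

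Between the days few genes of these lists passed. *Eln*, which encodes elastin, the substrate of lysyl oxidases in elastic fibers, was at 29.6 and 8.34 CPM in WT day 0 and at 261 and 84.4 CPM in WT day 15 mice, and rose (log2 fold change 3.10, SE 0.75, edgeR adjusted p = 0.0356). In *Hsf1* null mice it was at 13.2 and 6.47 CPM at day 0 and at 21.1 and 70.6 CPM at day 15, which was not called (2.14, adjusted p = 0.0828). *Emilin1*, an elastic fiber glycoprotein, rose in WT mice (1.58, SE 0.33, adjusted p = 0.0245 in edgeR) and in *Hsf1* null mice (1.22, SE 0.34, adjusted p = 0.0428). The call in *Hsf1* null mice was lost with the replicate block (adjusted p = 0.0580 in edgeR). *Postn*, which encodes the matricellular protein periostin, fell in *Hsf1* null mice by 2.71 on the log2 scale (SE 0.54, adjusted p = 0.0197 in edgeR), from 134 and 314 CPM to 15.5 and 52.6 CPM. In WT mice its log2 fold change was -1.75 (SE 0.52, adjusted p = 0.0641 in edgeR), and DESeq2 called it (-1.74, adjusted p = 0.00362). *Adamts14*, a procollagen N-proteinase, rose in *Hsf1* null mice from 8 and 1 counts to 24 and 30 counts (log2 fold change 2.72, SE 0.63, adjusted p = 0.0263 in edgeR). *Sec23a*, of the vesicle coat that carries procollagen from the endoplasmic reticulum, fell in *Hsf1* null mice by 1.17 (SE 0.25, adjusted p = 0.0215). In all, 2 of the 46 genes were called between the days in WT mice and 4 in *Hsf1* null mice, where 7.74% and 11.8% of all genes were called. DESeq2 called 5 of the 46 in each genotype, against 12.1% and 15.3%, adding *Tgm1*, *Mfap4* and *Postn* in WT and *Col5a1* in *Hsf1* null mice. The edgeR counts ran from 0 to 4 and from 0 to 5 over the fits without 1 mouse. Without replicate 1 of WT day 0 they were 1 and 3, with *Emilin1* lost in both genotypes (adjusted p = 0.0770 and 0.0575 in edgeR). Each of the 6 calls was lost without at least 1 other mouse. *Eln* passed in 4 of 8 such fits in WT mice, and *Emilin1* in 4 of 8 in WT and 2 of 8 in *Hsf1* null mice. *Postn* passed in 6 of 8, *Sec23a* in 5 of 8 and *Adamts14* in 4 of 8, all in *Hsf1* null mice.

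The genotypes also differed at day 15 in markers of the cell types that could carry these RNAs, given here as the summed CPM of each list. The marker genes of the tissue were present, since in the lists of fibroblasts, smooth muscle, colon epithelium, absorptive colonocytes and goblet cells no marker was at 0 in any mouse. Beside the lower *Tgm3*, the sum of 7 goblet cell markers was between 8137 and 10026 CPM in WT day 15 mice and between 21220 and 40523 CPM in *Hsf1* null day 15 mice. That of 8 absorptive colonocyte markers was between 1636 and 3388 CPM in WT and between 4068 and 8463 CPM in *Hsf1* null mice. The median log2 fold changes of these lists were -1.53 and -0.92, with 6 of 7 and 8 of 8 markers lower in WT, beside -3.65 for *Tgm3*. The general colon epithelium list of 9 markers was between 15360 and 16097 CPM in WT and between 20519 and 23650 CPM in *Hsf1* null mice. Of 12 squamous epithelium markers, looked at because *Tgm3* is known from the skin, 5 were in the count table, with sums between 5.96 and 27.0 CPM in all 8 mice. The part of these cell types in the level of *Tgm3* was not tested.

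Beside the higher *Tgm2* and *Plod1*, several stromal and immune lists were higher in WT day 15 mice. The sum of 8 macrophage markers was between 1086 and 1178 CPM in WT and between 288 and 546 CPM in *Hsf1* null mice, with 8 of 8 higher, and of these markers *Cd163* was at 0 in replicate 1 of *Hsf1* null day 15. That of 7 endothelial markers was between 263 and 324 CPM in WT and between 79.3 and 151 CPM in *Hsf1* null mice, with 7 of 7 higher. Fibroblast markers, 8 genes, lay between 1116 and 1351 CPM in WT and between 352 and 957 CPM in *Hsf1* null mice, with 8 of 8 higher. Neutrophil markers, with 5 of 6 in the table, were between 115 and 484 CPM in WT and between 6.20 and 22.6 CPM in *Hsf1* null mice, where *S100a8* was at 0 in replicate 1. Smooth muscle markers went the other way, between 2123 and 3678 CPM in WT and between 5311 and 6085 CPM in *Hsf1* null mice. Replicate 1 of *Hsf1* null day 15 had the lowest fibroblast and endothelial sums of all 8 mice, and also the lowest *Tgm2* and *Plod2*. The part of these cell types in the levels of the enzymes was not tested.

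**Figure D5:**
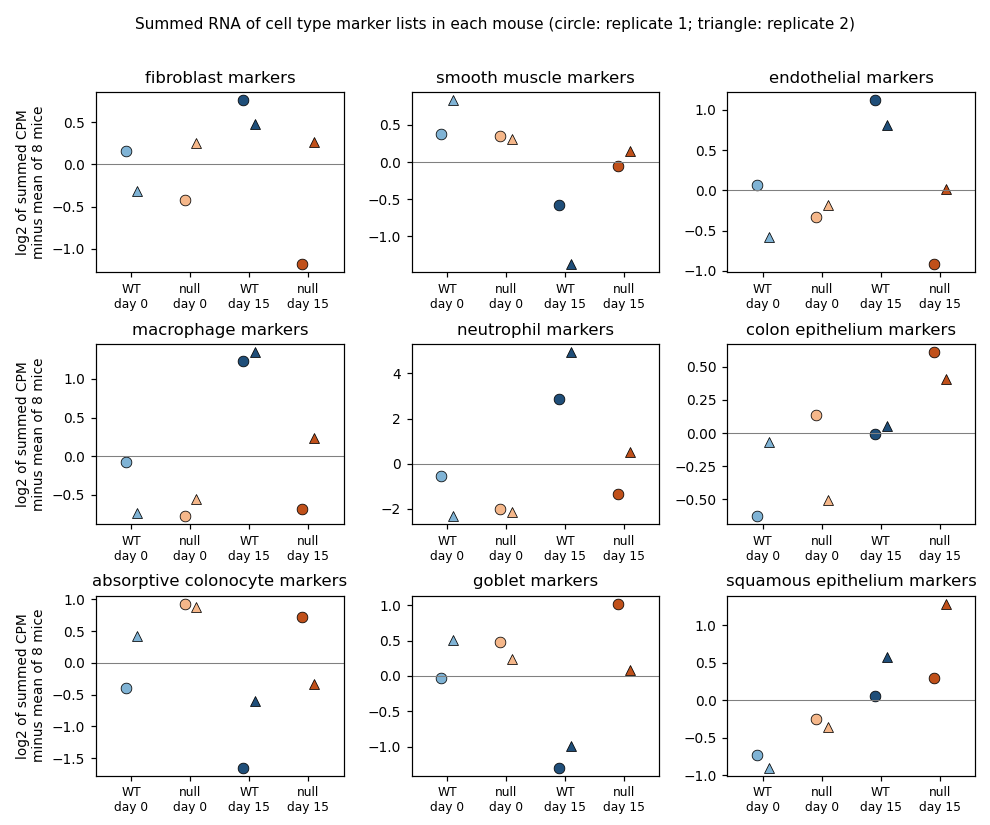
Summed CPM of 9 cell type marker lists in each mouse, as log2 relative to the mean of the 8 mice, by group (circles replicate 1, triangles replicate 2; vertical axes differ). At day 15 macrophage sums were 1086 and 1178 CPM in WT against 288 and 546 CPM in *Hsf1* null mice, while goblet cell sums were at most 10026 CPM in WT and at least 21220 CPM in *Hsf1* null mice.

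At day 0 the absorptive colonocyte sum was between 3913 and 6901 CPM in WT and between 9455 and 9764 CPM in *Hsf1* null mice. The genotypes did not overlap in this list, nor in the smooth muscle list (7152 to 9808 CPM in WT and 6855 to 7036 CPM in *Hsf1* null mice) or the squamous list (5.96 to 6.66 and 8.62 to 9.36 CPM). The fibroblast sum was between 640 and 891 CPM in WT and between 597 and 951 CPM in *Hsf1* null mice. The median log2 fold change of this list was -0.03, with 4 of 8 markers higher in WT. *Lox*, *Loxl1* and *Loxl3* had log2 fold changes of 3.62, 2.13 and 2.48 in that comparison, none of them called by edgeR, and of -1.01, 1.20 and 0.32 without replicate 1 of WT day 0. In replicate 1 of WT day 0, which had the highest *Lox* and *Loxl3* of all 8 mice, the fibroblast sum was 891 CPM. In replicate 2 of *Hsf1* null day 0 it was 951 CPM. The part of these cell types in the levels of the enzymes at day 0 was not tested.

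The patterns of the enzymes over the 8 mice were compared by Pearson's r of log2 CPM, as a description, since the mice share groups and libraries. *Tgm3* had a negative r with each of the 8 other enzymes, from -0.89 with *Loxl2* to -0.30 with *Lox*. *Tgm2* and *Plod1* were the most alike, at 0.94. *Lox* and *Loxl3*, both highest in replicate 1 of WT day 0, had an r of 0.78. Among all tested genes, those most like *Tgm3* were *Sycn* (0.992) and *Syne2* (0.992). *Sycn* was at 1906 and 4224 CPM in WT day 0, 4692 and 2677 CPM in *Hsf1* null day 0, 100.1 and 98.0 CPM in WT day 15, and 5617 and 562 CPM in *Hsf1* null day 15 mice. The order of the mice at day 15 was thus close to that of *Tgm3*, with replicate 2 of *Hsf1* null day 15 between the others.

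For *Tgm2* the most alike were *Adssl1* (r 0.995), at 5.81 CPM or less in every mouse, and *Hspa8* (0.988), which encodes the constitutive HSC70 chaperone. *Hspa8* was at 631 and 594 CPM in WT day 0, 474 and 452 CPM in *Hsf1* null day 0, 901 and 1313 CPM in WT day 15, and 390 and 607 CPM in *Hsf1* null day 15 mice. Both *Tgm2* and *Hspa8* were highest in replicate 2 of WT day 15 and lowest in replicate 1 of *Hsf1* null day 15. *Lox* was most like *Bcat1* (0.986) and *S100a4* (0.976), *Loxl1* like *Hspg2* (0.971), the basement membrane proteoglycan perlecan, and *Fkbp10* (0.968), a collagen chaperone. *Loxl2* was most like *Rad54l* (0.990) and *Asf1b* (0.984), a DNA repair gene and a histone chaperone. *Loxl3* was most like *Calu* (0.990) and the collagen gene *Col12a1* (0.985), *Plod1* like *Elmo1* (0.987) and *Galnt2* (0.984), *Plod2* like *Prickle1* (0.992) and *Cdk2* (0.983), and *Plod3* like *Pelp1* (0.993) and *Zdhhc12* (0.989). With 8 mice and 14371 genes, values this high are found for every one of the enzymes.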

How the data were processed

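RNA-seq counts of the distal colon of 8 male mice were analyzed. The labels gave each sample its genotype, day and replicate number, and the mice are separate animals, so p-values measure the spread between mice. Titles and paper place the treated mice at day 15, whereas the protocol in the labels ends directly after DSS. Per the labels and the paper, the authors made libraries with the SENSE mRNA-Seq kit, aligned reads to mm10 with STAR and deposited raw counts per gene. The counting program, annotation and use of strand are not given in the sources used here. Genes whose highest sample had fewer than 6 counts were not in the table. A second table, which the authors deposited as a score (counts divided by DESeq2 size factors), was used only to check the normalization.

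Counts were fitted in R 4.3.3 with edgeR 4.0.16 (TMM, quasi-likelihood test, 4 groups in 1 model over 8 samples, prior degrees of freedom 5.97), for genes with a mean normalized count above 5, with Benjamini-Hochberg adjustment over all genes tested. SE was computed as the absolute log2 fold change over the square root of F. Fits were tested on simulated data. Lengths and positions come from GENCODE M21 on GRCm38. Similarity used log2 CPM with a prior count of 2. The alternatives were DESeq2 1.42.0, its size factors in edgeR, no filter, filterByExpr, the replicate number as a block, counts thinned to the smallest library, no fold threshold, only the groups compared, the longest transcript as length, and each mouse left out in turn. Leaving mice out for the other gene lists and for medians was added after the data were seen. The enzymes, lists and tests were chosen with earlier results of these data known. Genes named beside the 9 enzymes are *Hsf1*, genes of the lists that were called or that a result turns on, and the 2 genes most like each enzyme.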

Additional observations from a re-analysis of the deposited data

How the results depend on the processing

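With 2 mice per group, calls depended on single mice. Each fit without 1 mouse held a single mouse in that group and took its spread from the other groups only. Over the fits that each left out 1 mouse, the number of the 9 enzymes called ran from 0 to 5 between the genotypes at day 15 and from 0 to 1 at day 0. It ran from 0 to 4 between the days in WT mice, 0 to 1 in *Hsf1* null mice and 0 to 1 for the interaction. Genes called in all ran from 12 to 871, 0 to 17, 113 to 1331, 0 to 1889 and 0 to 50 in the same order. At day 15 the count of enzymes was 0 without replicate 1 or 2 of *Hsf1* null day 0, replicate 2 of WT day 15 or replicate 1 of *Hsf1* null day 15, and 5 without replicate 2 of *Hsf1* null day 15. In WT mice it was 0 without replicate 2 of WT day 15, and in *Hsf1* null mice it was 0 without replicate 2 of either day. DESeq2 gave 5, 1, 4, 2 and 1 enzymes and 1197, 18, 1737, 2203 and 130 genes. With only the groups compared there were 0 enzymes and 6 genes at day 15 and 2 genes at day 0. For the interaction, no filter gave 2 genes and thinning 4, and thinning gave 2 enzymes between the days in *Hsf1* null mice. The cause of these shifts was not tested.

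Directions turned for values that were not called with all mice, given here as the lowest and highest log2 fold change over the fits without 1 mouse. At day 0 the range was -0.34 to 0.40 for *Tgm3*, -1.01 to 4.54 for *Lox* and -0.43 to 0.53 for *Plod2*. Between the days in WT mice it was -2.96 to 2.60 for *Lox*, -0.24 to 1.21 for *Loxl1* and -1.59 to 1.29 for *Loxl3*. In *Hsf1* null mice it was -0.50 to 0.57 for *Tgm2*, -1.86 to 0.35 for *Tgm3* and -1.33 to 0.033 for *Plod2*. For the interaction it was -3.98 to 1.58 for *Lox*, -1.38 to 0.075 for *Loxl1*, -0.69 to 0.89 for *Loxl2*, -1.03 to 1.87 for *Loxl3* and -0.53 to 0.24 for *Plod3*. With the alternatives that kept all mice, the interaction of *Loxl3* turned after thinning (0.00942), 7 values newly passed, 7 no longer passed, and 291 kept their direction and side of the threshold. The longest transcript as length gave mean levels of 10.1, 6.66 and 23.5 CPM per kb for *Plod1*, *Plod2* and *Plod3*.

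Same-numbered mice are different animals. The correlations of their deviations from the group means across genes were 0.142, 0.0395, -0.290 and 0.148 in the 4 comparisons between groups. With 2 mice per group this check cannot exclude that same-numbered mice shared a batch. With the replicate number as a block, 343, 0, 868, 1505 and 2 genes were called, and 3, 0, 2, 1 and 0 of the enzymes, with *Plod1* between the days in WT mice no longer called (adjusted p = 0.0621 in edgeR). Depth limits *Loxl3* most, with as few as 7 counts in a mouse.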
